A study of Homo sapiens with 6 samples.

Results

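The nuclear genes of the mitochondrial respiratory chain were described in GEN2.2, a human cell line established from leukaemic plasmacytoid dendritic cells. The members are genes with a detected probe whose platform symbol follows 1 of 5 patterns. These are NDUFA, NDUFB, NDUFC, NDUFS or NDUFV directly followed by a digit, SDHA to SDHD, UQCR, COX4 to COX8 directly followed by A, B, C or a digit, and ATP5. Detected means a detection p under 0.01 on all 3 arrays of a group, and the brightest such probe stands for its gene. Of 82 symbols on the array that match, 69 were members, among 8706 genes tested in all. They fall into 29 genes of complex I, 3 of complex II, 9 of complex III, 10 of complex IV and 18 of complex V. Chromosome 19 carries 9 of them and chromosomes 1 and 11 carry 6 each, and 2 are pseudogenes.

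Total RNA was hybridised to 6 Illumina HumanHT-12 v4 bead arrays, 3 with RNA of cells given 1 µM ODN2006 for 2 h and 3 with RNA of untreated cells. ODN2006 is a synthetic CpG oligonucleotide that activates Toll-like receptor 9. All 6 samples were GEN2.2 cells in log phase grown with fetal bovine serum, so a single leukaemia line stands for the cell type, and no control oligonucleotide was analysed here. Whether replicates came from separate cultures is not in the labels, and the p-values therefore cover the spread of these 6 samples alone, which could be technical.

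Complexes I and II take electrons from NADH and succinate, complex III passes them to cytochrome c, and complex IV passes them to oxygen. Complexes I, III and IV pump protons, and complex V, the ATP synthase, uses the resulting gradient to make ATP. Most subunits are encoded in the nucleus and imported, and the factors NRF1 and GABP (an ETS family factor) are known to bind promoters of many of them. Subunits encoded by mitochondrial DNA were not analysed here.

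Each array carried 47218 probes, of which 13454 to 15447 were detected, and the median raw signal was 107 to 121. Across tested probes, correlations were 0.983 to 0.991 within a group and 0.960 to 0.974 between groups. Of 11 plasmacytoid dendritic cell markers, 9 were detected on all 6 arrays, LILRA4 on 1 array and PTCRA on none. The T cell markers CD3D, CD3E and CD2 were detected on no array. The monocyte markers CD14, LYZ and FCGR3A were detected on all 6 arrays, with mean log2 intensities of 10.36, 10.48 and 6.88 on ODN2006 arrays and 10.60, 10.87 and 6.81 on untreated arrays. The B cell marker CD79A was also detected on all 6 arrays, with means of 5.88 on ODN2006 and 5.60 on untreated arrays. The stroma marker COL1A2 was detected on 5 arrays, the red cell marker HBA2 on 2 and the B cell marker MS4A1 on 1. COL1A1, DCN and HBB were detected on no array. The part of these markers in the results was not tested. In bulk RNA, fewer cells of a type and less RNA per cell cannot be told apart.

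Promoter sequence was read for the members to show where the letters bound by NRF1 and ETS factors lie. RefSeq promoters (GRCh38.p14, from 250 bases before to 50 bases after the start) were matched to 57 of the 69 members. The following are the 150 bases directly upstream of the start for 1 gene of each complex, on the gene's strand. They were chosen because they hold matches, and capitals mark GCATGCGC (NRF1) or CCGGAAG (ETS) on either strand.
NDUFA1: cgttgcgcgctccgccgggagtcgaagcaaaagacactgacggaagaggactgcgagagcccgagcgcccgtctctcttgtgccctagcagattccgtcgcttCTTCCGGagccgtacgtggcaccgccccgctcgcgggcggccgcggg
SDHD: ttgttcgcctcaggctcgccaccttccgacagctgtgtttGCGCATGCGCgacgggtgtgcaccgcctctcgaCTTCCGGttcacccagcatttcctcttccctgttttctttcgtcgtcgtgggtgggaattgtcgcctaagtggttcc
UQCR11: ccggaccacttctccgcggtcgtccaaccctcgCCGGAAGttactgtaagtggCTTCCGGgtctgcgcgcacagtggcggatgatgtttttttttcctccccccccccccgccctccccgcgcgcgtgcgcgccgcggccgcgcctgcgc
COX5B: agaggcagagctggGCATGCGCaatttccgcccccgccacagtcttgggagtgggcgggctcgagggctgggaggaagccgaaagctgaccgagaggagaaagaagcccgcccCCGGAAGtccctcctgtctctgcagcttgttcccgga
ATP5ME: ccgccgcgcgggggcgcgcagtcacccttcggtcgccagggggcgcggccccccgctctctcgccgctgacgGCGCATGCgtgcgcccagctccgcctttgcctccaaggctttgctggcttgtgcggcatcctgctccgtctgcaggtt
The NDUFA1 stretch is chrX:119871682-119871831 on the plus strand, with an ETS match that starts 47 bases upstream of the transcript start. In SDHD, chr11:112086723-112086872 on the plus strand, NRF1 matches on both strands overlap at 110 and 108 bases upstream and an ETS match starts at 77. UQCR11, chr19:1605463-1605612 on the minus strand, holds ETS matches at 117 and 97 bases. COX5B, chr2:97645912-97646061 on the plus strand, holds an NRF1 match at 136 and an ETS match at 37 bases. ATP5ME, chr4:674277-674426 on the minus strand, holds an NRF1 match at 78 bases.

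Across the 300-base promoters, on both strands, the NRF1 letters were in 10 of 57 member promoters (17.5%), against 5.98% of 7111 promoters of tested genes and 3.27% of all 27305 promoters. The ETS letters were in 17 members (29.8%), against 20.7% of tested genes and 10.7% of all promoters. At least 1 of these motifs was in 22 member promoters (38.6%), against 25% and 13.3%. Split by complex, that was 7 of 26 promoters in complex I, 1 of 2 in complex II, 3 of 6 in complex III, 4 of 9 in complex IV and 7 of 14 in complex V. The YY1 letters GCCATCTTG were in 4 members (7.02%), against 3.09% and 1.48%. CCAAT, bound by NFY, was in 20 members (35.1%), against 38.3% and 35.7%, and TATAAA in 6 (10.5%), against 5.58% and 12%. A match is a description of the letters and not of binding, and no motif here is part of another.

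By its brightest probe, no respiratory chain gene passed the test after 2 h of ODN2006, and all 69 members were detected on all 6 arrays. With limma and Benjamini-Hochberg adjustment over all 13816 tested probes, 0 of 69 members were called higher, against 3.41% of all tested genes (297 of 8706), and 0 were called lower, against 1.81% (158 of 8706). Member adjusted p-values ran from 0.354 to 0.996. At an unadjusted p under 0.05 the count was also 0 in both directions, against 6.55% of all genes higher and 8.67% lower. With the replicate number as a block, 0 members were called higher, against 4.65% of all genes, 0 were called lower, against 4.11%, and 4 were lower at an unadjusted p under 0.05, against 14.3% of all genes.

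Member changes were small and mostly below 0. The median log2 change (ODN2006 minus untreated) was -0.12 over the members and -0.05 over all tested genes. It was negative in 58 of 69 members (84.1%), against 61.0% of all tested genes. With median scaling in place of quantile normalization, 48 of 69 were negative (69.6%, against 58.7% of all genes) with a member median of -0.06, and without ODN2006 replicate 2 the count was also 48. Changes ran from -0.37 in UQCR11 to 0.23 in ATP5MK, with an interquartile range of 0.11 in members and 0.27 in all genes. A change within 0.25 on the log2 scale was found for 65 members (94.2%), against 72.6% of all genes. Without background correction these shares were 95.7% and 88.9%, and the interquartile ranges were 0.11 and 0.17. Members were also brighter, with a median level of 10.72, against 7.74 over all tested genes. The part of brightness in these differences was not tested. The 95% interval of the change lay within 2-fold in all 69 members and within 1.5-fold in 62, with bounds between -0.81 and 0.63. Many members are bright: 35 of 69 lay at or above the 90th percentile of tested genes and 4 below the 50th.

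**Figure D1:**
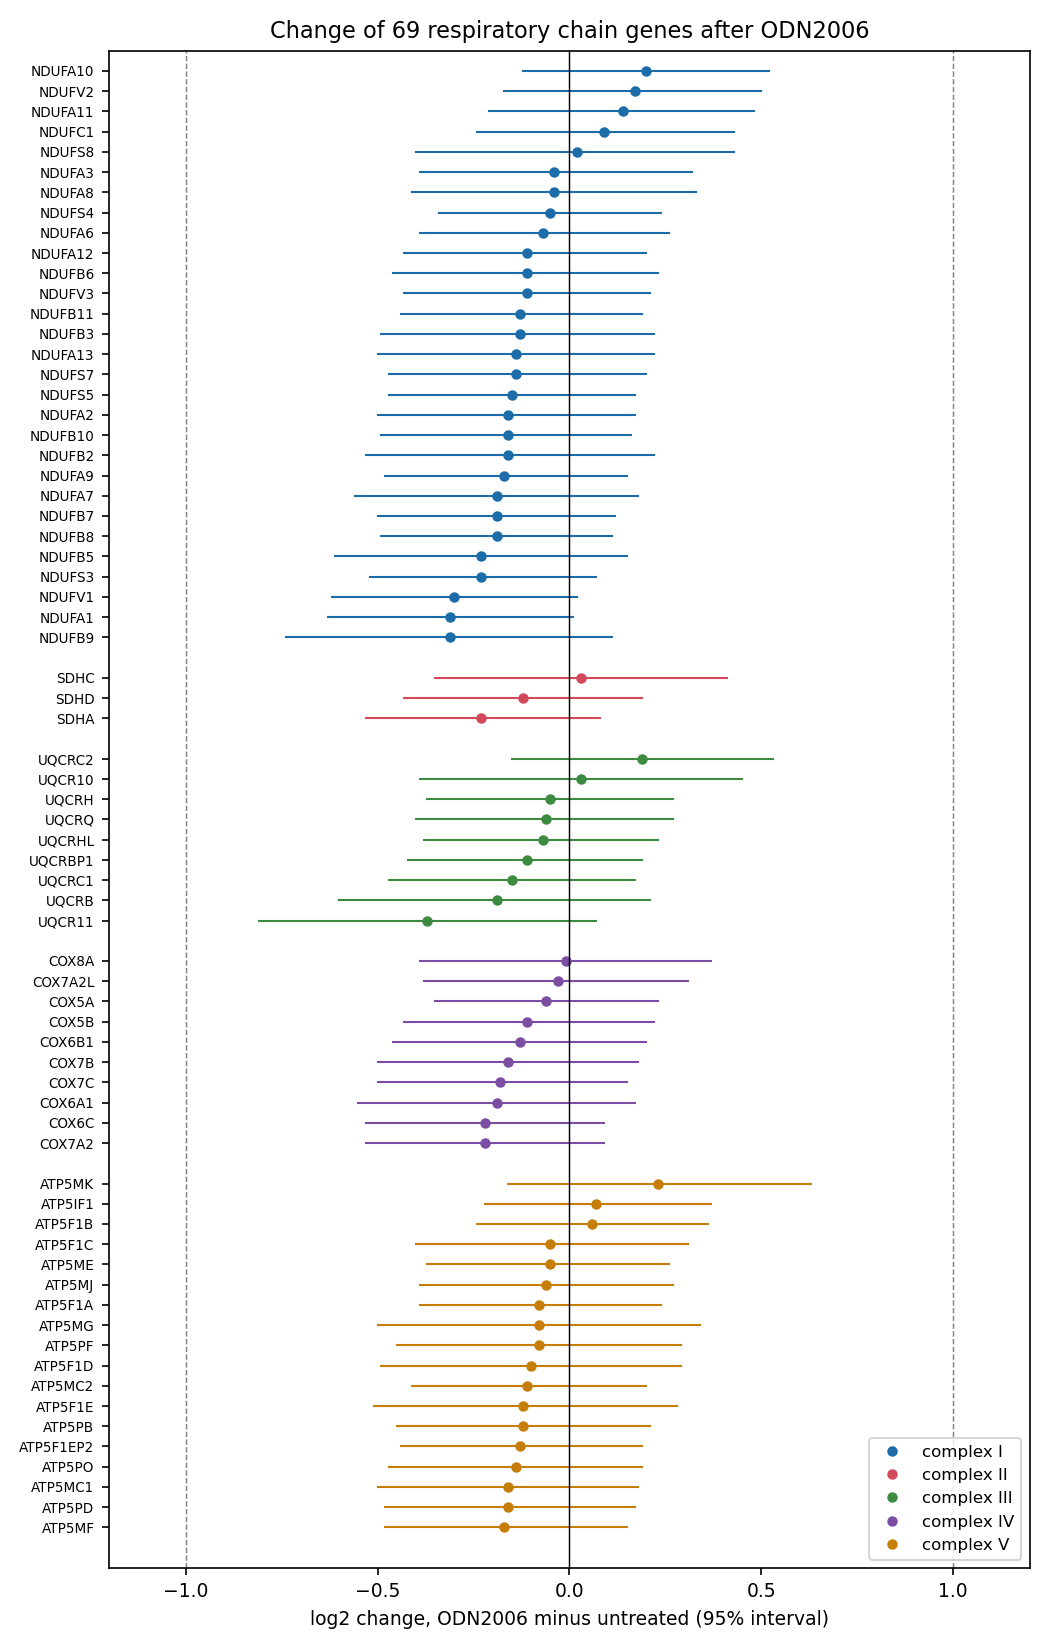
Log2 change (x axis, ODN2006 minus untreated) of each of the 69 members, with its 95% interval from the limma fit (n = 3 arrays per group), coloured by complex and sorted within it. Every interval crosses 0 and lies inside the dashed lines, which mark 2-fold; 58 points lie left of 0.

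By complex, the median change was -0.14 in complex I (24 of 29 negative), -0.12 in complex II (2 of 3), -0.07 in complex III (7 of 9), -0.15 in complex IV (10 of 10) and -0.09 in complex V (15 of 18). Median log2 intensities over the 6 arrays were 10.41, 8.89, 9.64, 11.88 and 11.18 in complexes I to V. Probes differ in brightness for the same amount of RNA, so these levels describe the probes and do not rank the complexes by transcript abundance. Within complexes the probes spanned 6.04 to 12.08 (I), 8.62 to 10.44 (II), 5.84 to 12.36 (III), 9.80 to 12.84 (IV) and 6.03 to 14.27 (V).

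In 7 members (of 69, against 12.4% of all tested genes) every ODN2006 value lay below every untreated value, and in 0 members every ODN2006 value lay above, against 8.48% of all genes. They were NDUFA1, NDUFB8, NDUFS3 and NDUFV1 of complex I, SDHA of complex II, and COX6C and COX7A2 of complex IV. Their share is close to that of all genes.

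Complex I members came closest to the threshold. NDUFA1, an accessory subunit of the membrane arm, had log2 intensities of 12.07, 11.79 and 11.90 on ODN2006 arrays 1 to 3, against 12.18, 12.15 and 12.36 on untreated arrays 1 to 3. The groups do not overlap, with untreated array 3 highest and ODN2006 array 2 lowest. Its log2 change of -0.31 ± 0.15 (SE, n = 3 per group) had the lowest adjusted p of all members, 0.354, and 0.166 with the replicate block. NDUFV1, the core subunit that binds NADH and FMN, had 10.35, 10.36 and 10.30 after ODN2006, against 10.82, 10.66 and 10.43 untreated. The 3 ODN2006 values lie within 0.06 of each other and the untreated values are spread more widely, without overlap. Its change was -0.30 ± 0.15 (adjusted p = 0.386).

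NDUFB9, an accessory subunit, had 10.10, 10.14 and 10.51 on ODN2006 arrays, against 10.41, 10.31 and 10.97 on untreated arrays. Array 3 was the highest of both groups, so the groups overlap although each ODN2006 value is below the untreated value of its own number. The change was -0.31 ± 0.19 (adjusted p = 0.543, and 0.151 with the block). NDUFS3, a core subunit of the peripheral arm, had 10.95, 10.92 and 10.90 after ODN2006, against 11.11, 11.21 and 11.12 untreated, a change of -0.23 ± 0.13 (adjusted p = 0.512). NDUFB8, an accessory subunit, had 11.39, 11.47 and 11.28, against 11.56, 11.61 and 11.53, a change of -0.19 ± 0.14 (adjusted p = 0.634). Both sets of groups stand apart by less than 0.2 on the log2 scale.

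The largest positive values of complex I were those of NDUFA10 and NDUFV2. NDUFA10, an accessory subunit, had 9.03, 8.83 and 8.89 after ODN2006, against 8.87, 8.54 and 8.75 untreated (0.20 ± 0.15, adjusted p = 0.646). NDUFV2, a core iron-sulphur subunit, had 10.75, 10.76 and 10.88, against 10.72, 10.40 and 10.79 (0.17 ± 0.15, adjusted p = 0.739). In both genes the groups overlap and untreated array 2 is the lowest. The bright NDUFB2, an accessory subunit, had 12.09, 11.64 and 11.49, against 12.01, 11.89 and 11.78 (-0.16 ± 0.17, adjusted p = 0.796), and the core iron-sulphur subunit gene NDUFS8 had 11.79, 11.61 and 11.39, against 11.88, 11.66 and 11.19 (0.02 ± 0.19, adjusted p = 0.993). In NDUFS8 the arrays of each number lay closer to each other than to the rest of their group. The other 20 complex I members had changes from -0.23 (NDUFB5) to 0.14 (NDUFA11).

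Complex II, succinate dehydrogenase, links the chain to the citric acid cycle. No probe was assigned to SDHB here, so SDHA, SDHC and SDHD alone stand for the complex. SDHA, the flavoprotein that oxidises succinate, had 10.20, 10.44 and 10.35 on ODN2006 arrays, against 10.62, 10.54 and 10.51 on untreated arrays. The groups do not overlap, and the gap between them is 0.07 on the log2 scale, smaller than the range inside the ODN2006 group. The change was -0.23 ± 0.14 (adjusted p = 0.525). The membrane anchors SDHC, with 9.22, 8.83 and 8.65 against 9.02, 8.90 and 8.69 (0.03 ± 0.17, adjusted p = 0.973), and SDHD, whose promoter is printed above, with 8.52, 8.57 and 8.59 against 8.79, 8.51 and 8.74 (-0.12 ± 0.14, adjusted p = 0.819), overlapped between groups.

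The most negative change of all members was in complex III. UQCR11, a small accessory subunit on a dim probe, had 6.09, 5.61 and 5.27 after ODN2006, against 6.07, 6.20 and 5.80 untreated. ODN2006 array 3 was lowest and array 1 lay close to untreated array 1, so the groups overlap. The change was -0.37 ± 0.20 (adjusted p = 0.457). UQCRC2, one of the core proteins, had 8.88, 8.68 and 8.61, against 8.41, 8.41 and 8.77, the largest positive change of the complex (0.19 ± 0.16, adjusted p = 0.687), with untreated array 3 inside the ODN2006 range.

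UQCRB, which contributes to ubiquinone binding, had 9.05, 8.69 and 8.78 on ODN2006 arrays, against 8.97, 8.73 and 9.40 on untreated arrays (-0.19 ± 0.19, adjusted p = 0.754). Untreated array 3 is the highest, and the other untreated values lie inside the ODN2006 range. The small subunit gene UQCR10 had 7.77, 7.40 and 7.06, against 7.55, 7.13 and 7.45 (0.03 ± 0.19, adjusted p = 0.978). Its dimmer tested probes disagreed, with 0.18 (adjusted p = 0.687) and -0.42 (adjusted p = 0.222). The groups of the last probe did not overlap. That probe was detected on 2 ODN2006 and 3 untreated arrays, so it was tested only through the group in which it is higher. The brightest members, UQCRH (the hinge protein), its near-copy UQCRHL and UQCRQ, had changes of -0.05 ± 0.15, -0.07 ± 0.14 and -0.06 ± 0.15, with adjusted p-values of 0.953, 0.917 and 0.942. Probes may be shared between UQCRH and UQCRHL, UQCRB and the pseudogene UQCRBP1, and ATP5F1E and the pseudogene ATP5F1EP2, so which copy a value reports is uncertain.

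All 10 complex IV members had negative changes, from -0.22 to -0.01. COX6C, a small structural subunit of cytochrome c oxidase, had 12.61, 12.69 and 12.65 after ODN2006, against 12.76, 12.81 and 13.05 untreated (-0.22 ± 0.14, adjusted p = 0.565). COX7A2, the widely expressed form of subunit VIIa, had 12.42, 12.48 and 12.29, against 12.52, 12.56 and 12.77 (-0.22 ± 0.14, adjusted p = 0.566). Neither gene's groups overlap, and in both untreated array 3 stands above the other arrays. COX7C had 12.90, 12.74 and 12.60, against 12.95, 12.77 and 13.04 (-0.18 ± 0.15, adjusted p = 0.705), and COX8A had 12.45, 12.51 and 12.88, against 12.45, 12.53 and 12.88 (-0.01 ± 0.17, adjusted p = 0.996). The COX8A values were nearly the same in same-numbered arrays of the groups. Without untreated replicate 3 the complex IV median was -0.04 in place of -0.15.

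In complex V, ATP5F1B, the catalytic beta subunit, was the brightest member. It had 14.37, 14.23 and 14.31 after ODN2006, against 14.33, 14.15 and 14.25 untreated (0.06 ± 0.14, adjusted p = 0.934). Those values lie close to the top of the normalized scale (14.44), which leaves little room for a rise. ATP5MC2, which encodes the c subunit of the rotating ring, had 12.71, 12.47 and 12.53, against 12.69, 12.65 and 12.69 (-0.11 ± 0.14, adjusted p = 0.845). ATP5F1EP2 had 12.94, 12.71 and 12.64, against 12.89, 12.86 and 12.92 (-0.13 ± 0.14, adjusted p = 0.804). In both, ODN2006 array 1 lay above the untreated range and the other ODN2006 arrays below it.

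ATP5MF, subunit f of the membrane part, had 11.17, 10.90 and 10.99 on ODN2006 arrays, against 11.30, 11.07 and 11.18 on untreated arrays (-0.17 ± 0.15, adjusted p = 0.722), with overlapping groups although each ODN2006 value lay below the untreated value of its number. ATP5MC1, another c subunit gene, had 10.13, 10.09 and 9.72, against 10.17, 10.06 and 10.19 (-0.16 ± 0.15, adjusted p = 0.755), and its dimmer probe read the other way (0.37, adjusted p = 0.356). ATP5MK, a small subunit of the membrane part, had 6.41, 5.86 and 6.15, against 5.82, 5.73 and 6.18 (0.23 ± 0.18, adjusted p = 0.672), the largest positive change of all members, on a dim probe with overlapping groups.

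ATP5IF1, an inhibitor of ATP hydrolysis by complex V and not a subunit, had 2 probes that disagreed. The brighter had 9.17, 9.01 and 9.02 on ODN2006 arrays, against 9.01, 9.03 and 8.94 on untreated arrays (0.07 ± 0.14, adjusted p = 0.914). The dimmer had 5.29, 5.09 and 5.46, against 5.84, 5.91 and 6.40, without overlap, and was detected on 1 ODN2006 array and on all 3 untreated arrays. It was thus tested only through the group in which it is higher, and its change of -0.77 ± 0.18 (adjusted p = 0.0280) does not stand apart from that filter. The call was lost without background correction (-0.25, adjusted p = 0.192), with an offset of 50, with median scaling, with no filter on dim probes, and without ODN2006 replicate 1 or 2 or untreated replicate 2 or 3. Across the 19 members with several tested probes, 8 had probes with changes of both signs.

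**Figure D2:**
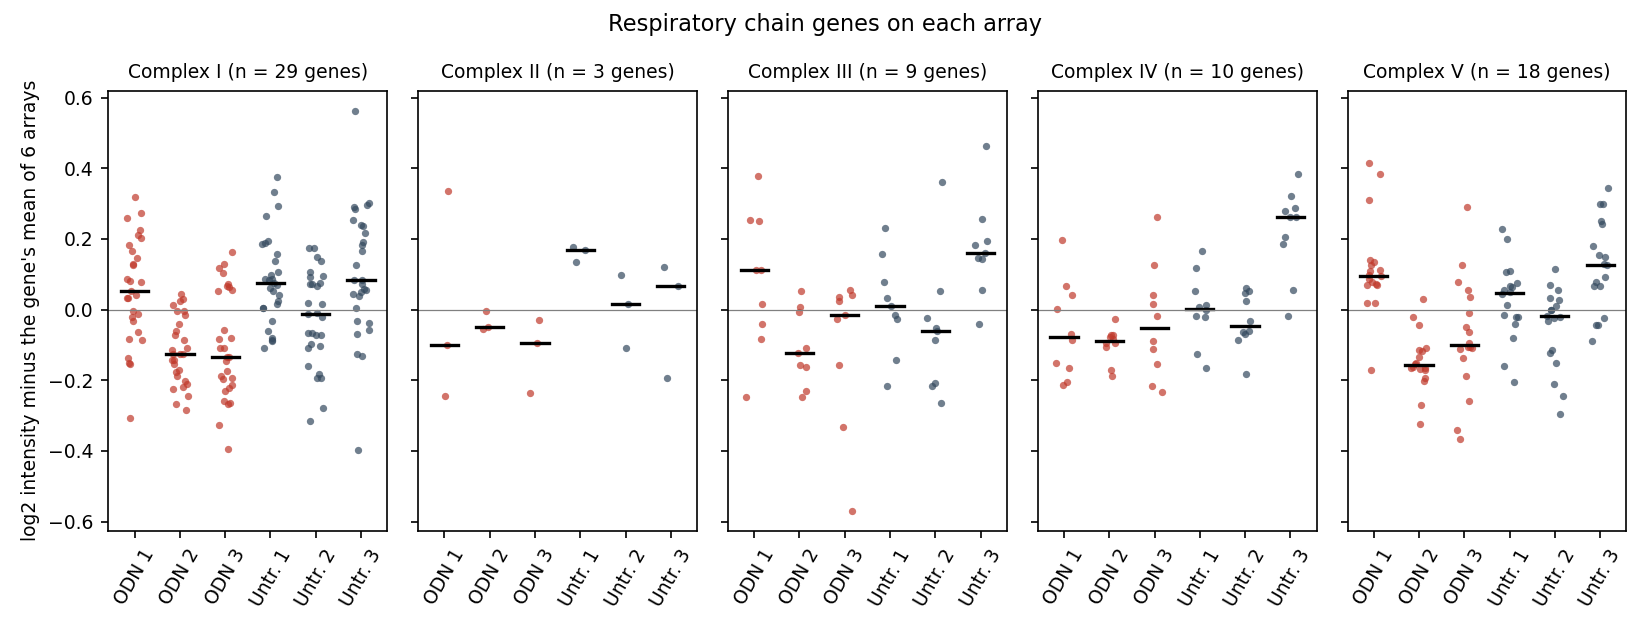
Each point is a member's log2 intensity on an array minus its mean over the 6 arrays (y axis), in panels by complex; ODN 1 to 3 are the ODN2006 arrays, Untr. 1 to 3 the untreated arrays, and black bars are medians. Untreated array 3 is high in complex IV (median 0.27), and ODN2006 array 1 lies above ODN2006 arrays 2 and 3 in complexes I, III and V.

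The result moves with single arrays. The median deviation of the 69 members from their own means was 0.07, -0.12 and -0.10 on ODN2006 arrays 1 to 3, against 0.05, -0.03 and 0.14 on untreated arrays 1 to 3, where medians of all tested genes stayed within 0.04 of 0. Untreated array 3 gave the highest value for 32 of 69 members (46.4%), against 21.6% of all tested genes, and for 7 of 10 complex IV members. ODN2006 array 1 was highest for 19 members (27.5%, against 19.8% of all genes), 9 of them in complex V. ODN2006 array 2 was highest for 0 members, against 10.2% of all genes, and lowest for 24 (34.8%, against 13.3%). Differences between same-numbered arrays had member medians of 0.00, -0.08 and -0.22 for numbers 1, 2 and 3, against -0.06, -0.05 and -0.05 over all genes. All 3 differences were negative in 25 members (36.2%; 28.7% of all genes) and all positive in 5 (7.25%; 15.9% of all genes), namely NDUFA10, NDUFA11, NDUFC1, NDUFV2 and ATP5F1B. The part that untreated array 3 plays in the direction was not tested beyond leaving it out. Without that array the member median was -0.06, against -0.06 over all genes. Still, 53 of 69 members were negative (76.8%, against 61.1% of all genes). Without ODN2006 array 2, 48 were negative (69.6%, against 59.1%).

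Background correction moved the log2 changes of the dim members and left those of the bright ones nearly as they were. Without it, the median change was -0.11 over the members (-0.03 over all genes), with 0 members called higher, against 3.16% of all genes, and 0 called lower, against 1.23%. At an unadjusted p under 0.05, 7 were lower, against 8.80% of all genes, where 0 were with correction. The lowest adjusted p of a member was 0.158 (NDUFA1), against 0.354 with correction, so p-values of bright members moved too. By complex the medians were -0.13, -0.10, -0.07, -0.14 and -0.09 for I to V, each within 0.03 of the corrected value. The 3 members with a mean log2 intensity under 7 had a median absolute change of 0.09 without correction and 0.23 with it, and the 30 members at 11 or more had 0.12 either way. UQCR11 had -0.12 without correction and -0.37 with it, ATP5MK 0.09 and 0.23, and NDUFA1 -0.30 and -0.31. The median standard error was 0.10 in members without correction and 0.15 with it.

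**Figure D3:**
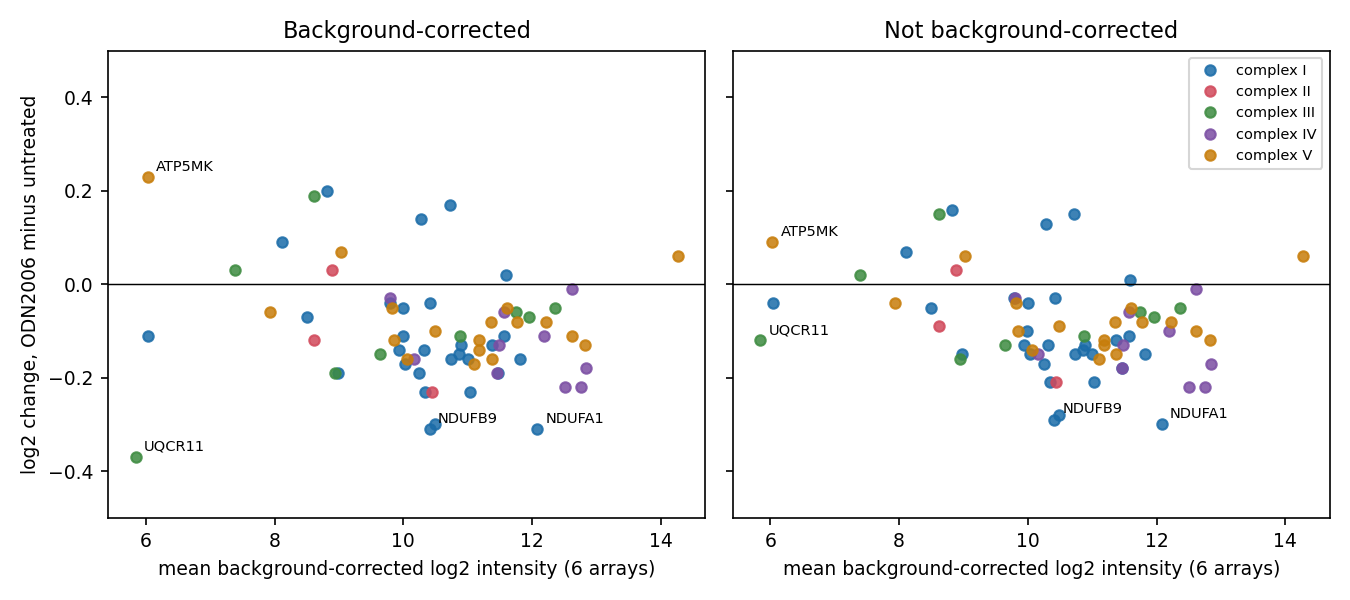
Log2 change (y axis, ODN2006 minus untreated) against mean background-corrected log2 intensity (x axis) of the 69 members, with background correction (left) and without (right), coloured by complex. The dim UQCR11 and ATP5MK move toward 0 without correction, and NDUFA1 and NDUFB9 stay near -0.3.

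Among the settings run, members were called only with no background correction and the replicate block together. That setting was chosen after seeing the data, and it called 3 of 69 lower, against 6.19% of all genes, and 0 higher, against 5.15%. They were NDUFA1 (-0.30, adjusted p = 0.0238), NDUFB9 (-0.29, adjusted p = 0.0235) and NDUFV1 (-0.28, adjusted p = 0.0335), all of complex I. The share of 3 in 69 is below that of all genes.

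The 13 matching symbols that were not members were ATP5MC3, COX6A2, COX6B2, COX7A1, COX7B2, COX8C, NDUFA5, NDUFB1, NDUFB2-AS1, NDUFB4, NDUFC2, NDUFS1 and NDUFS6. Of these, 12 were detected on no array and NDUFB1 on 1 ODN2006 array. COX6A2 and COX7A1 are known as heart and skeletal muscle forms, and COX6B2, COX7B2 and COX8C as testis forms. NDUFS1 and NDUFS6 encode subunits that complex I normally needs, and NDUFB2-AS1 is a long non-coding RNA. For all 13 symbols, a weak probe and a low transcript level cannot be told apart.

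The genes that surround the chain were followed from lists of named genes. CYC1, COX4I1 and NDUFAB1, subunits whose symbols do not follow those patterns, had changes of -0.12 ± 0.14 (adjusted p = 0.803), -0.10 ± 0.15 (0.865) and -0.02 ± 0.14 (0.989). CYCS, cytochrome c, the carrier between complexes III and IV, was read at 6.59, 6.88 and 6.95 on ODN2006 arrays, against 6.16, 6.25 and 6.67 on untreated arrays (0.45 ± 0.17, adjusted p = 0.226, and 0.0518 with the block), with overlapping groups. Without background correction it had 0.21 (adjusted p = 0.352), and it was chosen after its values were seen. Of these 4 tested genes 0 were called in either direction, against 3.41% of all genes higher and 1.81% lower, with a median change of -0.06.

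Among 45 tested assembly factors, which build the complexes without being part of them, 3 were called lower, against 1.81% of all genes, and 0 higher, against 3.41%, with a median of -0.06. SDHAF1, which helps insert iron-sulphur clusters into complex II, had 7.12, 6.73 and 6.77 after ODN2006, against 7.55, 7.29 and 7.68 untreated (-0.63 ± 0.16, adjusted p = 0.0481, and 0.0159 with the block). COA5, a complex IV factor, had 7.19, 7.33 and 7.32, against 7.89, 8.10 and 7.66 (-0.60 ± 0.15, adjusted p = 0.0448, and 0.0185 with the block). TMEM70, a complex V factor, had 6.31, 5.84 and 5.72, against 6.57, 6.76 and 6.89 (-0.78 ± 0.18, adjusted p = 0.0242, and 0.0214 with the block). The groups of all 3 genes stood apart, with ODN2006 below untreated, as in 12.4% of all tested genes. The 3 were named because they were called, so this separation adds no further support. The subunits of the complexes they serve were not called.

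These calls rest on narrow margins. SDHAF1 lost its call when any array other than ODN2006 replicate 1 was left out (adjusted p 0.0614 to 0.164), COA5 when any other than untreated replicate 3 was (0.0892 to 0.238), and TMEM70 without ODN2006 replicate 2 or 3 or untreated replicate 2 or 3 (0.0857 to 0.0999). Without background correction SDHAF1 had -0.36 (adjusted p = 0.0719) and TMEM70 -0.33 (0.0801), and COA5 kept its call at -0.39 (0.0493). With no filter on dim probes all 3 calls were lost (0.170, 0.125 and 0.133 for SDHAF1, COA5 and TMEM70), as were those of SDHAF1 and COA5 with median scaling (0.0617 and 0.0728) and with the deposited values (0.0571 and 0.0533). The other tested probe of TMEM70 had a change of -0.17 (adjusted p = 0.826).

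Of 20 tested regulators of mitochondrial biogenesis, 1 was called lower, against 1.81% of all genes, and 0 higher, against 3.41%, with a median of -0.06. MYC, a transcription factor that promotes growth and mitochondrial biogenesis, had 9.22, 9.03 and 8.86 on ODN2006 arrays, against 10.00, 9.87 and 9.67 on untreated arrays (-0.81 ± 0.16, adjusted p = 0.00835). Its groups stand apart, as in 12.4% of all tested genes with ODN2006 below untreated, and the call held under every alternative run. With the block ESRRA, an orphan nuclear receptor that controls energy metabolism genes, was also called lower (-0.49 ± 0.13, adjusted p = 0.0639 without and 0.0265 with the block, against 4.11% of all genes), and GABPB1, the partner subunit of GABP, was called higher (0.53 ± 0.15, 0.0684 without and 0.0356 with the block, against 4.65% of all genes). Without background correction and without the block, ESRRA was called lower too (-0.35, adjusted p = 0.0267), and GABPB1 had 0.28 (adjusted p = 0.110). By the mean of its probes GABPB1 had 0.30. GABPA, the ETS subunit of GABP, had -0.23 ± 0.16 (adjusted p = 0.588). It was detected on 2 ODN2006 and 3 untreated arrays, so it was tested only through the group in which it is higher. NRF1 is on the array, and it was not tested because no probe of it passed the detection filter.

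In the citric acid cycle and pyruvate list, 1 of 20 tested genes was called lower, against 1.81% of all genes, and 0 higher, against 3.41%, with a median of 0.00. It was PDK4, a kinase that inhibits pyruvate dehydrogenase, with 5.57, 5.69 and 5.19 on ODN2006 arrays, against 6.64, 6.15 and 6.96 on untreated arrays (-1.10 ± 0.21, adjusted p = 0.00786). It was detected on 2 ODN2006 arrays and 3 untreated arrays, so it was tested only through the group in which it is higher, and its call does not stand apart from that filter. Its change without background correction was -0.42 (adjusted p = 0.0555). With no filter on dim probes its adjusted p was 0.102.

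In the mitochondrial ribosome list, 0 of 76 genes were called by their brightest probes, against 3.41% of all genes higher and 1.81% lower. The list median was -0.10, against -0.05 over all genes. With the block 1 was called lower, against 4.11% of all genes. It was MRPL20-AS1, an antisense RNA that the symbol pattern takes in. The brightest genes of the list were MRPS12 (0.02 ± 0.14, adjusted p = 0.986) and MRPS6 (-0.23 ± 0.14, adjusted p = 0.527). The probes of MRPL39 disagreed in size. Its change was 0.24 ± 0.17 by the brightest probe (adjusted p = 0.621) and 0.82 by the mean of its tested probes. Of 16 carriers, coupling proteins and superoxide defence genes 0 were called, against 3.41% of all genes higher and 1.81% lower, with a median of 0.02. The carrier SLC25A5 had -0.11 ± 0.14 (adjusted p = 0.837) and the peroxidase GPX1 0.07 ± 0.16 (adjusted p = 0.934). SOD2, the mitochondrial superoxide dismutase, ranged from 8.56 to 9.35 after ODN2006, against 8.24 to 8.62 untreated (0.57 ± 0.20, adjusted p = 0.164, and 0.0489 with the block). With the block SOD2 was the only gene of these 16 called, against 4.65% of all genes called higher. Its groups overlap through ODN2006 array 2 and untreated array 3.

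**Figure D4:**
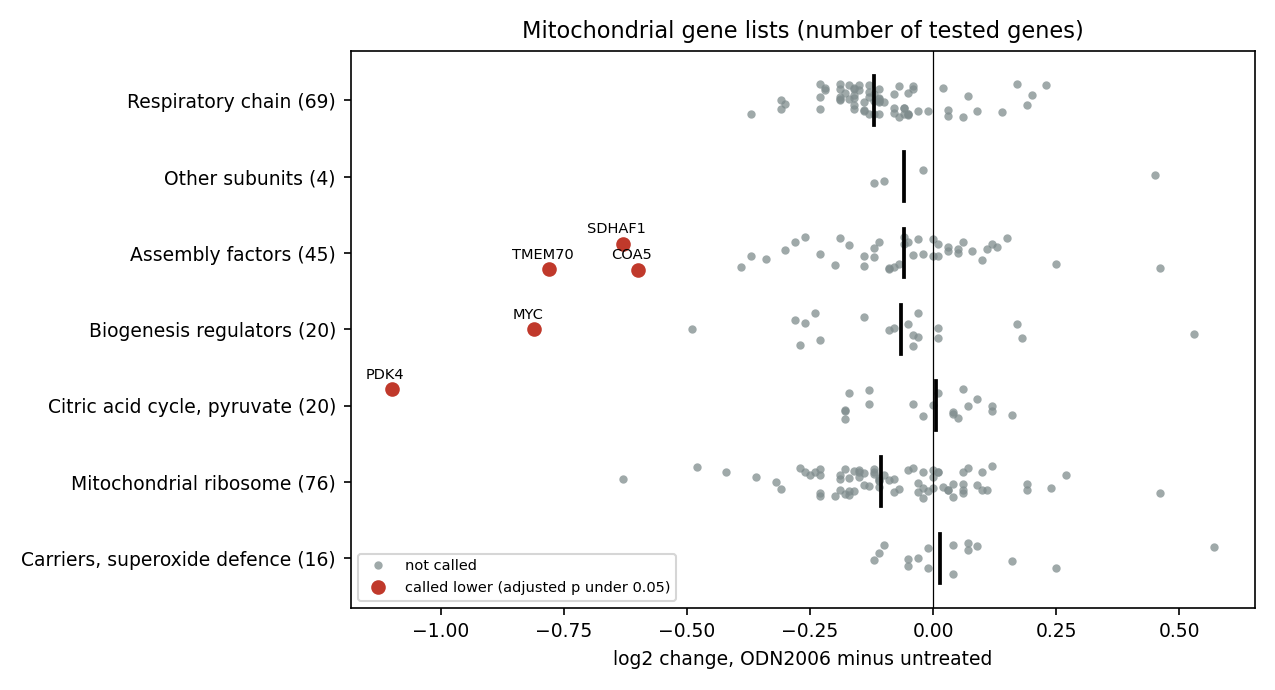
Log2 change (x axis, ODN2006 minus untreated) of every tested gene of each list; the vertical bars are list medians and red points are genes called lower at an adjusted p under 0.05 (limma). The respiratory chain row lies between -0.37 and 0.23 with no red point, and SDHAF1, COA5, TMEM70, MYC and PDK4 lie at -0.60 or below.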

How the data were processed

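The authors deposited non-normalized probe intensity on a linear scale, per the file headers, with a detection p-value per probe and array. A second deposited table holds log2 values. The submitters' processing notes name limma, and its settings are not given in the sources used here. The medians of these log2 values (4.59 on ODN2006, 4.67 on untreated arrays) and minima (-1.57 and 4.19) differ between groups, so they appear to have been normalized separately and served only as an alternative.

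Raw intensities were background-corrected (normexp, using the detection p-values), given an offset of 16 and quantile-normalized over the 6 arrays (neqc, limma 3.58.1, R 4.3.3). Probes with a detection p under 0.01 on all 3 arrays of a group (13816) were tested with lmFit and eBayes, two-sided, without covariates, with Benjamini-Hochberg adjustment and a threshold of 0.05. Platform symbols (1 for 30107 probes, several for 8, none here for 17103) were updated with RefSeq of GRCh38.p14. The fit was tested on simulated log2 values with errors independent between arrays. The normalization and the promoter matching were not part of that test.

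Replicate numbers come from the titles. Deviations from the group means correlated at 0.41, 0.35 and 0.46 between same-numbered arrays and at -0.11 to -0.35 between others, so the numbers were taken to pair the samples, by the data and not the labels. Deviations within a group cancel out, so the negative values add no separate evidence. Values after ± and the intervals come from the fit without the block. Its median member standard error was 0.151, with 62 intervals within 1.5-fold, against 0.118 and 68 with the block. The number as a block was an alternative, beside no background correction, an offset of 50, median scaling, the deposited values, no filter or a stricter filter on dim probes, a trended and robust prior, array weights, averaging the probes of a gene and leaving out each array. No slide or scan date was used.

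The members and lists were chosen with earlier results of these data known. The text names, per complex, the 3 brightest members, the 2 largest changes in each direction and every SDH member. From each other list it names up to 4 called genes or, with none called, the 2 brightest, and always CYC1, COX4I1 and NDUFAB1. Members whose groups do not overlap and genes not called in the test above but called with the block were added after their values were seen. So were CYCS, GABPA and MRPL39. The number of arrays limits the precision.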

Additional observations from a re-analysis of the deposited data

How the results depend on the processing

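No member was called when a single choice was changed, and 3 were called lower with no background correction and the replicate block together, where all genes gave 448 higher and 539 lower calls. Over all genes, 226 to 269 were called higher and 51 to 117 lower when an array was left out. The lower calls numbered 104 with median scaling, 58 with no filter on dim probes and 358 with the replicate block (158 otherwise), and the block changed no call of a member. The member median was -0.06 with median scaling (48 of 69 negative, 69.6%, against 58.7% of all genes), -0.07 with the deposited values (52, 75.4%, against 54.7%), and between -0.17 (without ODN2006 replicate 1) and -0.06 (without untreated replicate 3) when an array was left out. The complex III median was 0.00 with median scaling. By complex, leaving out an array gave -0.19 to -0.07 (I), -0.21 to -0.06 (II), -0.12 to -0.01 (III), -0.21 to -0.04 (IV, the last without untreated replicate 3) and -0.18 to -0.02 (V). Of 1173 member values under an alternative, 58 changed sign, in 22 members, and none of those values was called. The cause of these shifts was not tested. Member intervals lay within 1.5-fold for 62 of 69 members, and the widest bounds, -0.81 and 0.63, were those of the dim UQCR11 and ATP5MK probes.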
